A study of Homo sapiens with 35 samples.

Results

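The genes described here are 36 genes whose products build the mitotic spindle, join it to the chromosomes and drive cells into and out of mitosis. They were taken as the rows of both deposited count tables whose gene name equals a name on a fixed list, and all 36 were found among 59428 gene rows. The list holds CDK1 and the cyclins CCNA2, CCNB1 and CCNB2, the kinases PLK1 and AURKA, the chromosomal passenger complex genes AURKB, BIRC5, CDCA8 and INCENP, and the checkpoint kinases BUB1, BUB1B and TTK. It also holds the centromere and kinetochore genes CENPA, CENPE, CENPF, NDC80, NUF2 and SPC25, the spindle assembly genes KIF11, KIF2C, TPX2, NUSAP1, HMMR, ASPM and DLGAP5, and the midzone and cytokinesis genes KIF23, KIF20A, PRC1, ANLN and ECT2. The last 5 are CDC20, UBE2C and PTTG1, which act at the onset of anaphase, and MKI67 and TOP2A, which act on the surface and topology of mitotic chromosomes.

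The 35 libraries hold poly(A)-selected RNA of U937, THP-1, MOLM-13 and OCI-AML-3, which are 4 established human lines of acute myeloid leukaemia. The lines carried a control guide RNA (sgControl), a knockout of SUV39H1 alone (SKO) or a knockout of SUV39H1 and SUV39H2 (DKO), which encode methyltransferases of lysine 9 of histone H3. The series title asks how this methylation restrains an immune response to transposable elements. Untreated U937 and THP-1 each had 3 libraries of sgControl, 3 of SKO and 3 of DKO, and U937 given an agent called TPA in the labels, with no dose or time, had the same 3 groups of 3. For MOLM-13 there were 2 libraries each of sgControl and SKO. For OCI-AML-3 there were 2 libraries each of sgControl and DKO. A clone number stands in some library names: clone 1 for THP-1 sgControl, clone 1 for THP-1 SKO, and clone 3 for untreated U937 DKO. Clone and genotype cannot be told apart in those groups. The column names of THP-1 DKO also carry another date-like code and a lane-like code that THP-1 sgControl and SKO lack. Those of untreated U937 DKO carry no date-like code, while U937 sgControl and SKO share one, and 2 of its 3 libraries carry another lane-like code than sgControl and SKO do. In both lines these codes and the DKO genotype cannot be told apart. The column names also give another SUV39H2 guide for untreated U937 DKO than for THP-1 DKO, so guide and line cannot be told apart there. The labels do not say whether replicates were separate cultures, so p-values refer to library-to-library spread alone, and that spread may be technical.

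Mitosis begins when cyclin-bound CDK1 becomes active, and microtubules then form a bipolar spindle that captures each chromosome at its kinetochore. Checkpoint kinases hold CDC20 in check until all chromosomes are attached, after which the anaphase-promoting complex, loaded with CDC20 and fed ubiquitin by UBE2C, marks securin and cyclin B for destruction. RNA of most of these genes accumulates as cells pass through G2 into mitosis, and a class of short promoter elements known as CHR (cell cycle genes homology region), often with CCAAT boxes nearby, is known from several of them.

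Promoters are shown because most of these genes moved together in several comparisons. RefSeq windows (GRCh38.p14) of 300 bases, from 250 before to 50 after the annotated start, matched 31 of the 36 genes in 35 windows. The CHR letters TTTGAA or TTTAAA, searched on both strands, stood in 31 of the 35 windows (88.6%) against 23.99% of all 35116 windows in the table. CCAAT, also searched on both strands and counted whether or not it overlapped the other letters, stood in 28 windows (80.0%) against 34.6%, and both kinds stood together in 24 windows (68.6%) against 9.27%. BUB1, CCNA2 and AURKB had neither TTTGAA nor TTTAAA in any window. The 120 bases before the start are printed for CCNB1 and CDC20, which are followed in every library, for ASPM, which fell most in 2 lines and rose in another, and for BUB1, which had CCAAT alone. Capitals mark the CHR letters TTTGAA or TTTAAA and the box CCAAT, on either strand. The CCNB1 window is chr5:69167030-69167149 on the plus strand and the CDC20 window is chr1:43358861-43358980 on the plus strand. The ASPM window is chr1:197146670-197146789 on the minus strand and the BUB1 window is chr2:110678064-110678183 on the minus strand.
CCNB1: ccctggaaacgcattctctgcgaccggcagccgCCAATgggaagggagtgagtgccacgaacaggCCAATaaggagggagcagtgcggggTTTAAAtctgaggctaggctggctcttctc
CDC20: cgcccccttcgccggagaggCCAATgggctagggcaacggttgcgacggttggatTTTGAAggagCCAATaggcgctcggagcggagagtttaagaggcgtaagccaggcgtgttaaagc
ASPM: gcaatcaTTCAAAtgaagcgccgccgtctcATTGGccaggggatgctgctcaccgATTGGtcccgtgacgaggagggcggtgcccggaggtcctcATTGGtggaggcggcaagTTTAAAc
BUB1: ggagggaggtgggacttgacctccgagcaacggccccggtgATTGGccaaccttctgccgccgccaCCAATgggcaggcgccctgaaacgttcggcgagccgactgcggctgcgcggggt
In CCNB1 the TTTAAA begins 30 bases before the start, with CCAAT 55 and 87 bases before it. In CDC20 the TTTGAA begins 65 bases before the start, between CCAAT at 55 and 100 bases. ASPM has TTTAAA 7 bases and TTCAAA, the reverse complement of TTTGAA, 113 bases before the start, with ATTGG at 25, 65 and 90 bases. A match is a stretch of letters and says nothing about which factor binds there.

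Levels are given as CPM (counts scaled to library size) within a fit, and levels of different genes are compared only per length, as RPKM (reads per kilobase of exon, scaled to library size). All 36 genes passed the expression filter in every fit. CDC20, the activator of the anaphase-promoting complex, stood highest per length in THP-1 sgControl at 370 ± 22.5 RPKM (SD, n = 3), and also in MOLM-13 (80.8 ± 0.674, n = 2) and OCI-AML-3 (97.1 ± 2.36, n = 2). In U937 sgControl it stood at 184 ± 10.1 RPKM, and TPX2, which nucleates spindle microtubules near chromosomes, was higher at 275 ± 8.04 (n = 3). NUSAP1 and PRC1 were the lowest 2 genes in sgControl libraries of all 4 lines, between 0.106 and 0.325 RPKM. For these 2 genes the count is partial in untreated U937 and THP-1, where the recorded counting left out reads that overlap several genes. For MOLM-13 and OCI-AML-3 no counting command is recorded. How much of the low levels this accounts for was not tested. Of the NUSAP1 exon bases, 2938 of 3608 (81.4%) are shared with other annotated genes, and of PRC1 3416 of 5523 (61.9%). NUSAP1 had 5 to 52 counted reads per library and PRC1 4 to 82, so a change of either is poorly measured, and their levels are not read as those of the whole transcripts. Exons of another 10 genes of the list overlap other genes by at most 12.8%.

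SUV39H1 transcript was higher in the SKO than in the sgControl libraries of U937 (log2 fold change 0.76) and THP-1 (1.44), and lower in MOLM-13 SKO (-1.90) and OCI-AML-3 DKO (-3.35). In DKO libraries it was 0.32 in untreated U937, 0.75 in THP-1 and -0.71 in U937 under TPA. SUV39H2 transcript was lower in DKO of untreated U937 (-0.39), THP-1 (-1.11), U937 under TPA (-1.01) and OCI-AML-3 (-0.33). It was lower in SKO as well in U937 (-0.27), THP-1 (-0.63) and MOLM-13 (-1.15), and did not pass in U937 SKO under TPA (0.05). A guide-directed cut need not lower RNA, so these values do not check the labels of U937 and THP-1. Of the 10 myeloid markers examined, 8 or 9 were above 1 CPM in all libraries of each group, CD68 was under 1 CPM in all 4 lines and MPO was near 0 in U937. Summed over 8 lymphoid, 8 erythroid and megakaryocyte or 9 stromal and epithelial markers, levels did not pass 23.3 CPM in any library. The summed myeloid markers and mitochondrially encoded genes moved with several groups, and are given beside the results they move with.

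In untreated U937, the mitotic genes differed in both directions in SKO, as genes at large did, while nearly all of them were lower in DKO. In SKO against sgControl 17 genes rose, 7 fell and 12 did not pass the test, at a background where 30.7% of 14915 genes tested rose and 31.2% fell. Their median log2 fold change was 0.10, against -0.00 over all genes. In DKO against sgControl 35 of 36 genes fell and none rose, where 34.5% of genes fell, 33.2% rose and the median of all genes was -0.01. The mitotic genes had a median of -0.63, and 3 of them fell at least 2-fold, as 6.75% of all genes did. NUSAP1 did not pass (-0.49 ± 0.51, adjusted p = 0.405), and PRC1, at few reads, passed at -0.74 but lost its call without sgControl replicate 1 (-0.66) or 3 (-0.76) or DKO replicate 1 (-0.63) or 3 (-0.60). Both comparisons share the 3 sgControl libraries. Beside these changes the 10 myeloid markers summed to 692 to 709 CPM in sgControl, 1260 to 1270 in SKO and 1260 to 1290 in DKO. The 13 mitochondrially encoded genes summed to 51900 to 56600 CPM in sgControl, 50600 to 52600 in SKO and 46500 to 49900 in DKO. The part of either in the results was not tested. In these bulk samples, fewer cells in mitosis and less RNA per cell cannot be told apart.

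**Figure D1:**
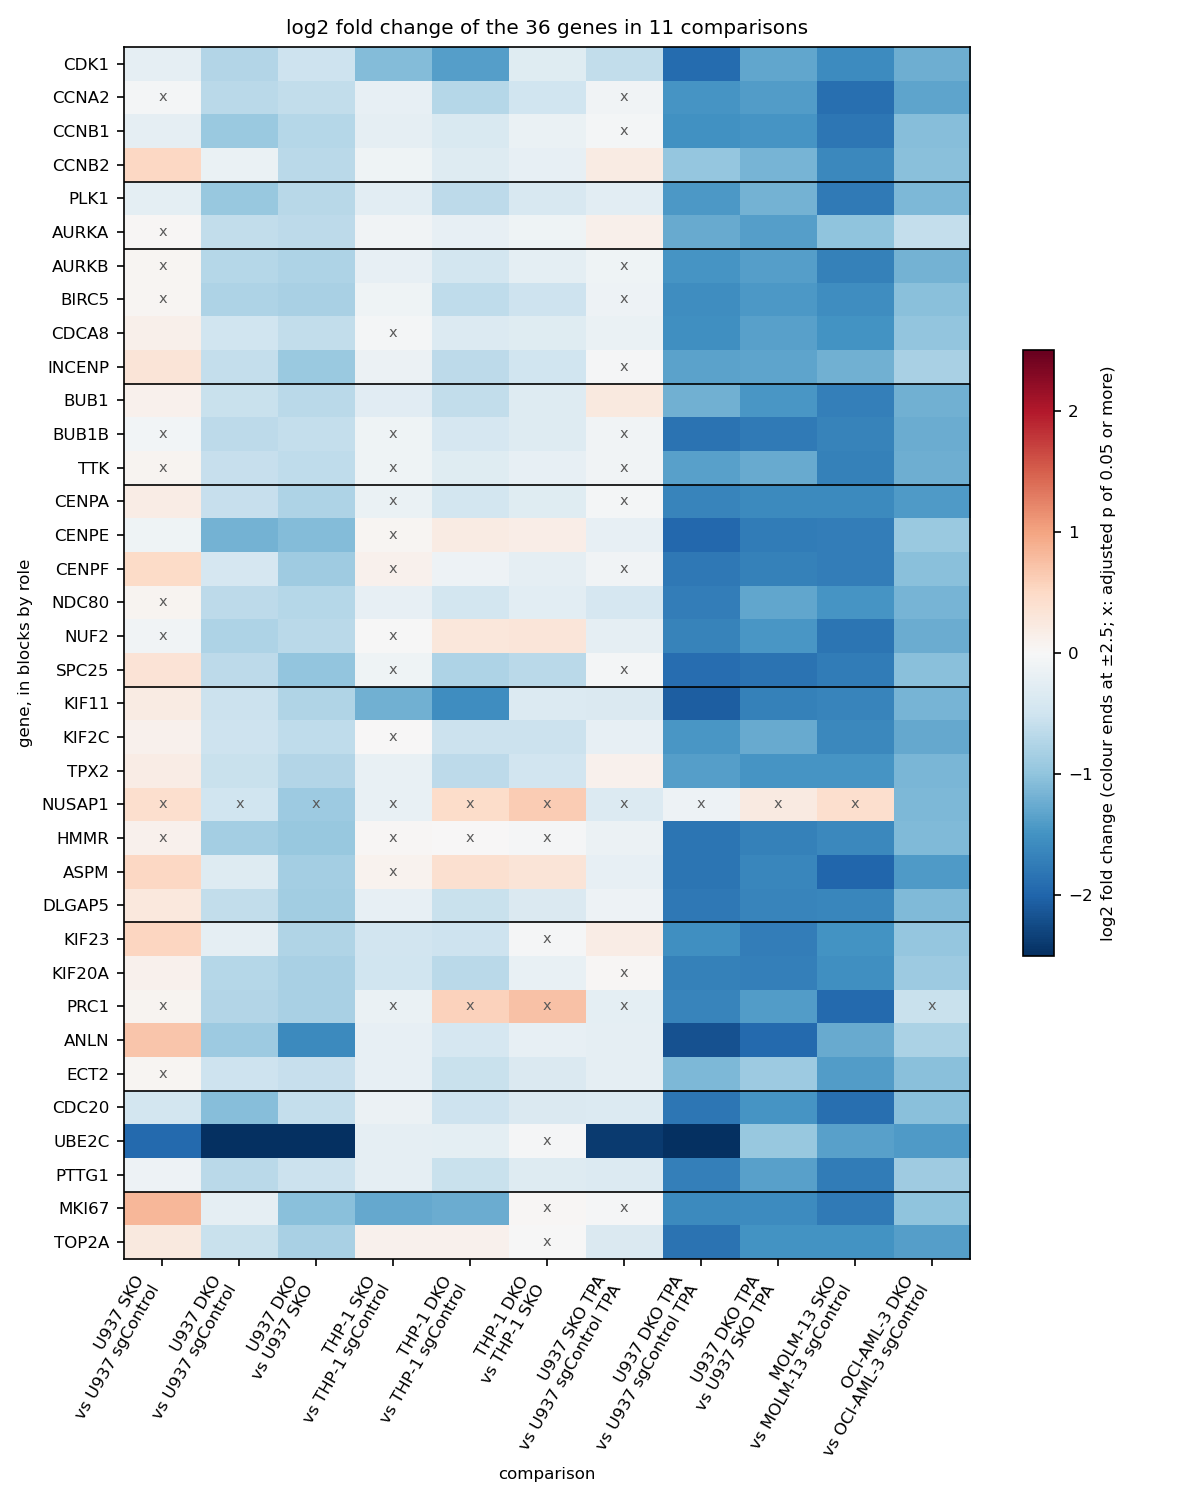
Heat map of the log2 fold change of the 36 genes (rows, by role) in 11 knockout comparisons (columns), with colours ending at 2.5 in either direction and a cross where the adjusted p was 0.05 or more. The DKO columns of U937, the MOLM-13 column and the OCI-AML-3 column hold 35 falls of 36 genes each, whereas the SKO columns of U937 hold both colours.

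The rises in U937 SKO were led by MKI67, the coat protein of mitotic chromosomes behind the Ki-67 proliferation stain. MKI67 stood at 653, 789 and 760 CPM in the 3 sgControl libraries, 1256, 1368 and 1268 in SKO, and 631, 624 and 631 in DKO. Every SKO library was above every sgControl library, and the DKO libraries lay just below the lowest sgControl library. Its log2 fold change was 0.82 ± 0.046 (SE, adjusted p = 2.39e-15) in SKO and -0.22 ± 0.046 (adjusted p = 8.95e-05) in DKO. ANLN, the anillin scaffold of the cleavage furrow, rose next with 0.69 in SKO and fell by 0.90 in DKO. KIF23, a motor of the central spindle (0.54), and ASPM, which focuses spindle poles (0.53), completed the 4 largest rises in SKO. For ANLN the neighbouring genes of its 20 Mb stretch of chromosome 7 had a median of -0.59 in DKO relative to all genes, and -0.02 in SKO. For KIF23 the stretch of chromosome 15 stood 0.34 above all genes in SKO and 0.40 above in DKO. The part of these regional shifts in the values of the 2 genes was not tested.

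By role, the 3 genes of anaphase onset were the only group in U937 SKO in which all genes fell. UBE2C fell by 1.94, CDC20 by 0.47 and PTTG1, which encodes securin, by 0.14 on the log2 scale. The PTTG1 call was lost without sgControl replicate 1 (-0.11) or SKO replicate 2 (-0.12). PLK1, the kinase of mitotic entry (-0.25), and CDK1, the mitotic kinase itself (-0.22), completed the 4 largest falls. Of the 4 cyclin and CDK genes, CCNB1 (-0.22) also fell, CCNB2 rose (0.52) and CCNA2 did not pass (-0.05). CCNB2 lies on chromosome 15, whose median was 0.21 in SKO, and stood at 0.31 relative to it. Of the 7 spindle assembly genes 5 rose and none fell, and of the 5 midzone genes 3 rose and none fell. The 2 B-type cyclins, which both partner CDK1, thus passed the test in opposite directions.

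In U937 DKO the falls lay in every role. CENPE, the kinetochore motor that brings chromosomes to the metaphase plate, stood at 126, 130 and 131 CPM in sgControl, 117, 116 and 127 in SKO, and 59.2, 55.6 and 55.7 in DKO. The DKO libraries were below every other library, whereas SKO and sgControl overlapped. The log2 fold change of CENPE in DKO was -1.18 ± 0.045 (adjusted p = 2.76e-19). CDC20 was at 394, 355 and 363 CPM in sgControl, 280, 263 and 261 in SKO and 177, 183 and 172 in DKO, with no overlap between the 3 groups. PLK1 was at 285, 271 and 269 CPM in sgControl, 236, 233 and 224 in SKO and 144, 146 and 140 in DKO. CCNB1 was at 322, 295 and 308 CPM in sgControl, 269, 257 and 271 in SKO and 155, 165 and 167 in DKO. All 3 genes thus stepped down from sgControl to SKO to DKO without overlap, to log2 fold changes in DKO of -1.06 for CDC20, -0.94 for PLK1 and -0.93 for CCNB1. The smallest falls in DKO among the genes that passed were those of CCNB2 (-0.17), KIF23 (-0.22), MKI67 (-0.22) and ASPM (-0.32). CCNB2 and KIF23 lie on chromosome 15, whose median was 0.19 in DKO. Relative to it they stood at -0.35 and -0.41. The part of the chromosome was not tested.

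Set directly against SKO, U937 DKO was lower for 35 of 36 genes, with a median of -0.76, where 24.9% of genes fell and 24.1% rose. The largest falls were in UBE2C (-3.02), ANLN (-1.59 ± 0.043), CENPE (-1.08) and MKI67 (-1.05). The median of chromosome 7, on which ANLN lies, was -0.58, and ANLN stood at -1.01 relative to it. CENPE (-1.06) and MKI67 (-1.05) were lower than that relative to their own chromosomes. The part of the chromosomes in these values was not tested. NUSAP1 again did not pass (-0.91), and the PRC1 call (-0.80) was lost without SKO replicate 2 (-0.56), DKO replicate 1 (-0.70) or DKO replicate 3 (-0.66). MKI67 in DKO thus stood below sgControl by a small step and below SKO by a large one.

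UBE2C stood apart from the other genes in U937. It encodes the ubiquitin-conjugating enzyme that starts chains on substrates of the anaphase-promoting complex, and its gene lies at chr20:45812576-45816957 on the plus strand of hg38. In U937 sgControl it stood at 27.0, 23.8 and 22.4 CPM, in SKO at 6.87, 6.28 and 5.94, and in DKO at 0.456, 0.689 and 1.22. The counted reads behind the DKO values were 16, 26 and 42, against 1134, 1012 and 786 in sgControl. The 3 groups did not overlap, and the DKO libraries were close to silent. The log2 fold change was -1.94 ± 0.12 in SKO (adjusted p = 1.94e-14) and -4.96 ± 0.16 in DKO (adjusted p = 8.97e-21). Without NUSAP1, UBE2C and PRC1, the changes of the other 33 genes in DKO had an SD of 0.225 and ran from -1.18 to -0.17.

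The genes next to UBE2C did not fall with it in untreated U937. The 3 nearest expressed genes on either side were looked up after its values had been seen. In U937 SKO they were at 0.11 (SYS1, not passing), 0.46 (PIGT), 0.51 (DNTTIP1), 0.33 (ACOT8), 0.69 (ZSWIM3) and 0.03 (ZSWIM1, not passing). In U937 DKO the same genes were at -0.09 (SYS1, not passing), 0.30, 0.35, 0.27, 0.85 and 0.26. In THP-1 UBE2C stood at 49.3, 48.0 and 45.7 CPM in THP-1 sgControl, 42.2, 36.3 and 44.8 in SKO and 43.4, 37.9 and 39.9 in DKO. The THP-1 change was -0.22 in SKO and -0.24 in DKO, and the SKO call was lost without SKO replicate 2 (-0.12). The effect on UBE2C differed between U937 and THP-1 by -1.71 ± 0.14 in SKO (adjusted p = 3.55e-13) and by -4.68 ± 0.18 in DKO (adjusted p = 8.93e-22).

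**Figure D2:**
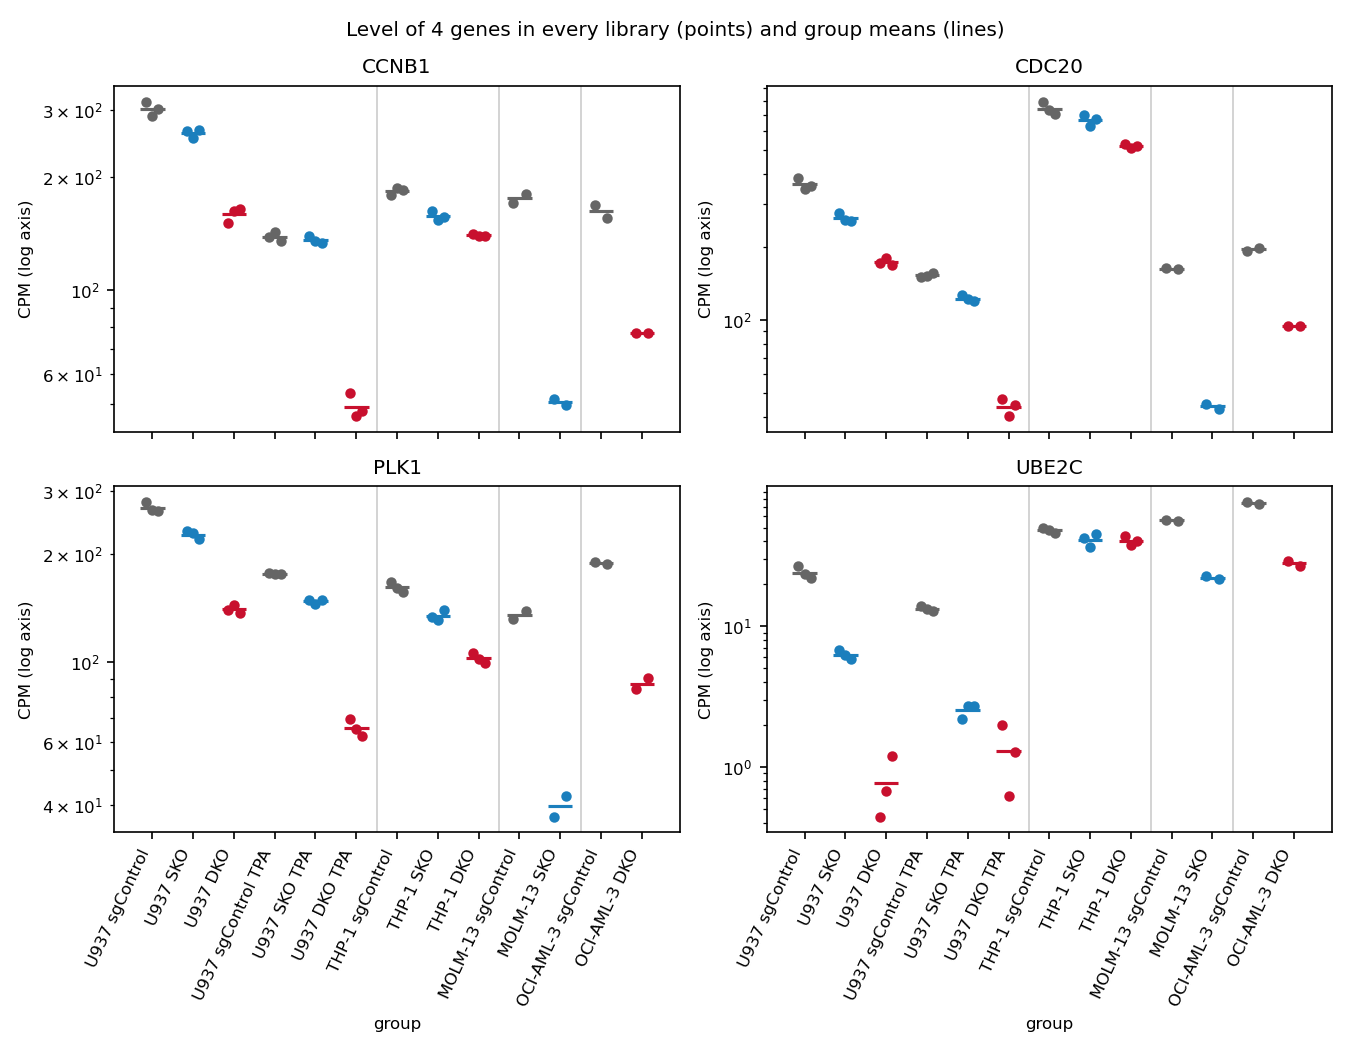
CPM of CCNB1, CDC20, PLK1 and UBE2C (log axis) in each library of the 13 groups, with grey for sgControl, blue for SKO, red for DKO and a line at each group mean. U937 values come from the fit of 18 libraries and differ slightly from those of the separate fits, and UBE2C drops to about 1 CPM or below in untreated U937 DKO while the other 3 genes move by less.

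In THP-1 the 3 genes on chromosome 10 were handled apart, because that chromosome as a whole was lower in both knockouts. They are CDK1 (chr10:60778331-60794852, plus strand), the bipolar kinesin gene KIF11 (chr10:92574105-92655395, plus strand) and MKI67 (chr10:128096659-128126423, minus strand). The median of 397 expressed genes of chromosome 10 stood 0.96 below that of all expressed genes in SKO and 0.97 below in DKO, where the median of all expressed genes was itself -0.17. Of the 397 genes, 97.5% in SKO and 91.9% in DKO lay under the median of all expressed genes. MKI67 was at 715, 703 and 783 CPM in sgControl, 291, 302 and 320 in SKO and 299, 319 and 310 in DKO. KIF11 was at 161, 169 and 169 CPM in sgControl, 70.0, 69.6 and 76.3 in SKO and 54.3, 56.9 and 59.4 in DKO. CDK1 was at 142, 153 and 152 CPM in sgControl, 66.9, 71.5 and 72.6 in SKO and 56.3, 57.3 and 57.5 in DKO. All 3 fell without overlap in both knockouts, and for MKI67 the 2 knockouts overlapped each other.

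The log2 fold changes in SKO were -1.27 for MKI67, -1.21 for KIF11 and -1.08 for CDK1, the 3 largest falls of the list. Relative to the median of chromosome 10 they were -0.29, -0.23 and -0.10. In DKO they were -1.25 for MKI67, -1.55 for KIF11 and -1.39 for CDK1, and -0.11, -0.41 and -0.25 relative to the chromosome. Most of the fall of these 3 genes was thus matched by the chromosome they lie on. What lowered the chromosome was not tested.

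The other 33 genes changed little in THP-1 SKO and fell in DKO. In SKO 19 of the 33 fell, 1 rose and 13 did not pass, with a median of -0.16, where 22.8% of 18585 genes tested fell and 20.6% rose. None of the 33 fell 2-fold, as 5.32% of all genes did. The largest falls were in the central spindle motors KIF20A (-0.49 ± 0.045) and KIF23 (-0.48 ± 0.047). The 1 gene that rose was TOP2A, the topoisomerase that untangles sister chromatids, at 762, 772 and 787 CPM in sgControl and 829, 828 and 851 in SKO. Its groups did not overlap, at a small log2 fold change of 0.11 ± 0.035 (adjusted p = 0.0110). The number of rises was 3 without sgControl replicate 3 and 2 without SKO replicate 1.

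In THP-1 DKO 26 of the 33 genes fell, 4 rose and 3 did not pass, where 33.7% of genes fell and 31.9% rose. Their median was -0.45, against 0.05 over all genes tested and -0.17 over genes expressed at a mean log2 CPM of 2 or more. The myeloid markers summed to 1180 to 1200 CPM in THP-1 sgControl, 1310 to 1330 in SKO and 1940 to 1970 in DKO. The mitochondrially encoded genes summed to 46800 to 49600 CPM in sgControl, 49800 to 53600 in SKO and 43600 to 44500 in DKO. The part of either in the changes was not tested. The genes that did not pass were HMMR, a spindle and hyaluronan-binding protein (0.01), and the poorly counted NUSAP1 (0.45) and PRC1 (0.57). SPC25, an outer kinetochore gene, fell most away from chromosome 10: it stood at 37.2, 41.1 and 34.9 CPM in sgControl, 34.6, 34.1 and 36.8 in SKO and 22.8, 22.1 and 21.5 in DKO. Its DKO libraries were below all others and its log2 fold change was -0.77 ± 0.067 (adjusted p = 2.24e-11). PLK1 went from 167, 162 and 157 CPM in sgControl to 134, 131 and 140 in SKO and 106.4, 102 and 99.8 in DKO. CDC20 went from 793, 732 and 705 CPM to 701, 633 and 673 in SKO and 534, 514 and 520 in DKO, and CCNB1 from 178, 186 and 185 CPM to 162, 153 and 156 and then 141, 139 and 140. DKO was the lowest group for all 3 genes, with log2 fold changes of -0.65 for PLK1, -0.51 for CDC20 and -0.39 for CCNB1.

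The 4 genes that rose in THP-1 DKO were ASPM, NUF2, CENPE and TOP2A. ASPM stood at 165, 188 and 200 CPM in sgControl, 186, 202 and 197 in SKO and 228, 251 and 249 in DKO. Its DKO libraries lay above all others, at a log2 fold change of 0.40 ± 0.052 (adjusted p = 8.27e-08). NUF2, which forms the microtubule-binding NDC80 complex with NDC80 and SPC25, rose by 0.29 on the log2 scale, while NDC80 (-0.47) and SPC25 (-0.77) fell. CENPE rose by 0.20, with 121, 152 and 148 CPM in sgControl overlapping 151, 173 and 160 in DKO, and TOP2A by 0.10. Without DKO replicate 2 the number of rises was 2, as CENPE (0.13) and TOP2A (0.07) lost their calls. The CENPE call was also lost without sgControl replicate 1 (0.09), and the TOP2A call without sgControl replicate 2 (0.09) or DKO replicate 3 (0.09). Against SKO, DKO was lower for 26 of 36 genes and higher for 3 (ASPM 0.32, NUF2 0.30 and CENPE 0.16), where 28.5% of genes fell and 25.3% rose. The CENPE call there was lost without SKO replicate 1 (0.13), SKO replicate 3 (0.15), DKO replicate 2 (0.10) or DKO replicate 3 (0.16). The largest falls in that comparison were in SPC25 (-0.67) and KIF2C, a microtubule-depolymerizing kinesin (-0.54). MKI67 did not differ beyond the test between the 2 knockouts of THP-1 (0.02 ± 0.043, adjusted p = 0.666).

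**Figure D3:**
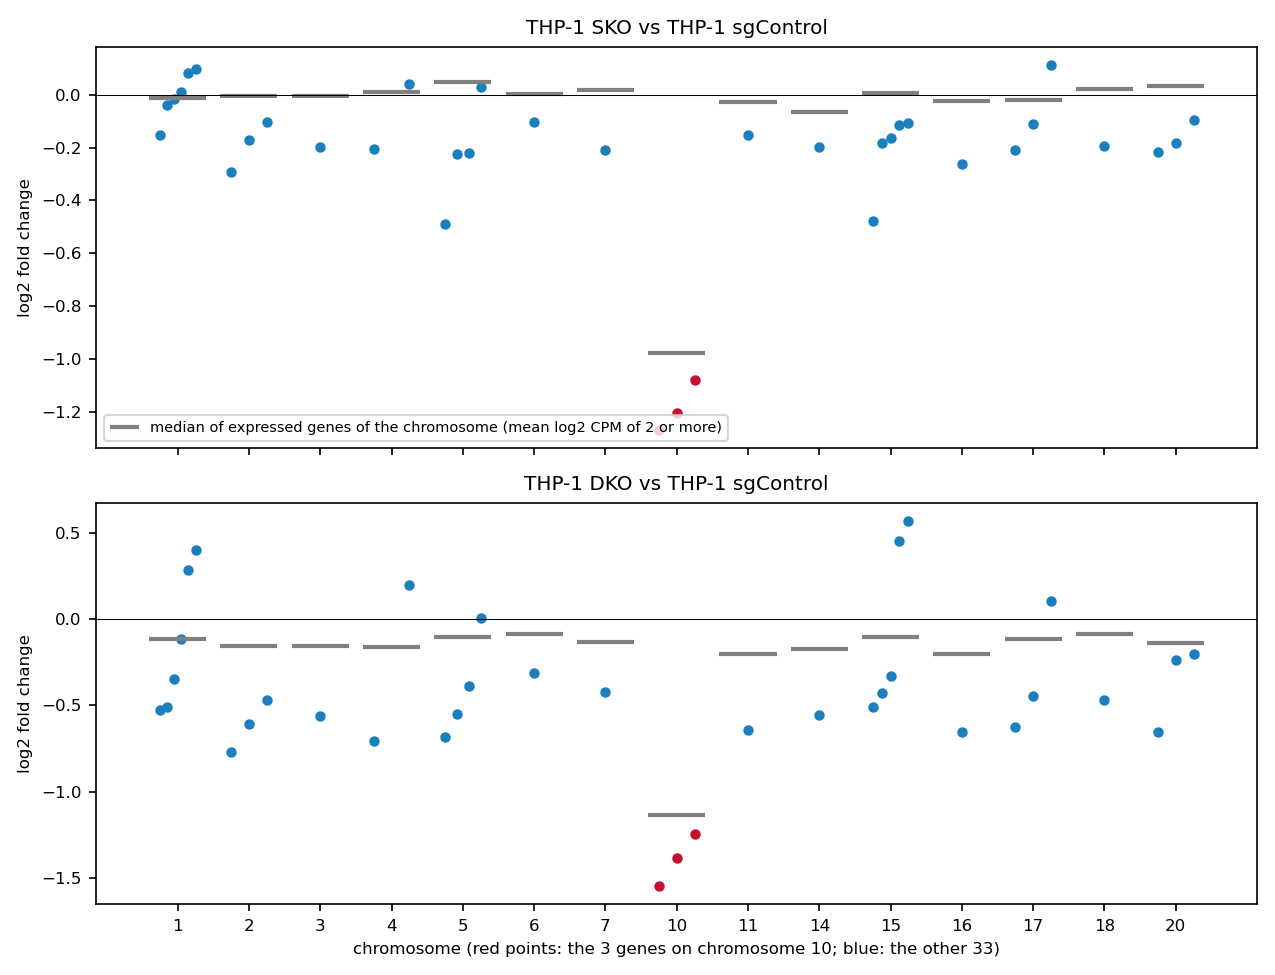
Log2 fold change of each mitotic gene in THP-1 SKO and DKO by chromosome, beside the median of all expressed genes of that chromosome. The 3 genes of chromosome 10, in red, lie near a chromosome median that itself stands 0.96 to 0.97 below that of all expressed genes.

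MOLM-13 SKO was lower for all of the list but NUSAP1. Of the 36 genes 35 fell and all 35 fell at least 2-fold, where 32.2% of 15472 genes tested fell and 5.89% fell 2-fold. The median was -1.62, against 0.02 over all genes, and without NUSAP1, UBE2C and PRC1 the changes had an SD of 0.202, running from -1.98 to -1.002. ASPM fell most, from 124 and 128 CPM in the 2 sgControl libraries to 30.2 and 33.5 in the 2 SKO libraries, at -1.98 ± 0.048 (adjusted p = 1.22e-25). CCNA2, the cyclin of S phase and early mitosis (-1.89), CDC20 (-1.88) and PRC1 (-1.94 ± 0.56) were the other large falls. The PRC1 call was lost without SKO replicate 1 (-1.48), and its value was -2.66 without SKO replicate 2. CCNB1 went from 170 and 180 CPM to 51.5 and 49.5, CDC20 from 164 and 162 to 45.2 and 42.9, and PLK1 from 132 and 139 to 37.1 and 42.4. For all 3 genes both SKO libraries lay far below both sgControl libraries. NUSAP1 alone did not pass (0.42 ± 0.34).

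The falls in MOLM-13 spanned all roles, with medians from -1.39 for PLK1 and AURKA to -1.75 for the 3 genes of anaphase onset. AURKA, the spindle pole kinase, changed least among the genes that passed (-1.002 ± 0.046), followed by INCENP (-1.20), ANLN (-1.25) and UBE2C (-1.35). UBE2C, which led the falls in U937, was thus among the least changed in MOLM-13, at 56.7 and 56.1 CPM in sgControl and 22.6 and 21.6 in SKO. Beside these falls, the summed 10 myeloid markers went from 1690 to 1740 CPM in sgControl to 8510 to 8530 in SKO. LYZ, the lysozyme gene, made up most of that rise, from a mean of 578 to 7320 CPM, while MPO (351 to 115) and CEBPE (34.5 to 11.1) were lower in SKO. The 13 mitochondrially encoded genes summed to 55400 to 58900 CPM in sgControl and 74900 to 75700 in SKO. The part of either in the results was not tested.

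OCI-AML-3 DKO showed the same breadth at a smaller size. Of the 36 genes 35 fell and 27 fell at least 2-fold, where 25.6% of 16175 genes tested fell and 4.76% fell 2-fold, and the median was -1.10 against 0.02 over all genes. ASPM again fell most, from 175 and 172 CPM in sgControl to 71.4 and 57.7 in DKO, at -1.43 ± 0.066 (adjusted p = 3.58e-24). UBE2C (-1.42), CENPA, the histone H3 variant that marks the centromere (-1.42), and TOP2A (-1.38) followed. CCNB1 went from 168 and 155 CPM to 77.1 and 76.8, CDC20 from 192 and 199 to 94.7 and 94.2, and PLK1 from 190 and 187 to 84.2 and 90.1. In each of these genes the DKO libraries lay far below both sgControl libraries. The smallest falls were in AURKA (-0.60), ANLN (-0.80), INCENP (-0.82) and PTTG1 (-0.89), and PRC1 did not pass (-0.56). NUSAP1 passed narrowly (-1.13 ± 0.49, adjusted p = 0.0486) and lost its call when any 1 of the 4 libraries was left out (-1.34 to -0.95). The myeloid markers summed to 1220 to 1260 CPM in sgControl and 2410 to 2470 in DKO, and the mitochondrially encoded genes to 50600 to 51600 and 59700 to 61700. Most of the myeloid difference was LYZ, from a mean of 260 to 1210 CPM, while CEBPA (189 to 150) and MPO (1.99 to 1.29) were lower in DKO. Their part was not tested.

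AURKA, ANLN and INCENP were thus among the 4 smallest falls in both MOLM-13 SKO and OCI-AML-3 DKO, and ASPM was the largest fall in both. The 2 lines share no libraries, but they carry different genotypes.

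Under TPA, the mitotic genes were lower in U937 DKO by about as much as in MOLM-13 SKO, and by more than without TPA. In DKO TPA against sgControl TPA 35 of 36 genes fell and 34 fell at least 2-fold, where 36.5% of 16246 genes tested fell and 12.7% fell 2-fold. The median was -1.65, against -0.05 over all genes, and without NUSAP1, UBE2C and PRC1 the changes ran from -2.17 to -0.97 with an SD of 0.274. ANLN fell from 201, 196 and 199 CPM in sgControl TPA and 166, 176 and 171 in SKO TPA to 54.5, 40.7 and 37.2 in DKO TPA, with no overlap between the groups. Its log2 fold change in DKO was -2.17 ± 0.073 (adjusted p = 5.40e-20). Chromosome 7, on which ANLN lies, had a median of -0.47 there. ANLN stood at -1.70 relative to it, against -1.96 for KIF11 relative to chromosome 10. The part of the chromosomes was not tested. KIF11 (-2.06) and CENPE (-1.95) followed, and CCNB2 (-0.97) and ECT2, the exchange factor that starts the contractile ring (-1.13), changed least among the genes that passed. NUSAP1 did not pass (-0.12).

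UBE2C was the largest fall under TPA as well, at 13.7, 13.04 and 12.6 CPM in sgControl TPA, 2.14, 2.65 and 2.67 in SKO TPA and 1.96, 0.613 and 1.25 in DKO TPA. DKO replicate 1 was close to the SKO libraries and the other 2 DKO libraries were lower, on 69, 20 and 43 reads. The log2 fold change was -2.40 ± 0.17 in SKO (adjusted p = 3.68e-12) and -3.35 ± 0.20 in DKO (adjusted p = 1.19e-14). CCNB1 stood at 138, 141 and 133 CPM in sgControl TPA, 136, 132 and 131 in SKO TPA and 52.1, 45.3 and 46.9 in DKO TPA. CDC20 stood at 150, 150 and 154 CPM, then 124, 119 and 118, then 46.4, 39.2 and 43.7, and PLK1 at 176, 174 and 174, then 146, 142 and 146, then 67.8, 63.5 and 61.01. DKO was far below the other groups for all 3, and CCNB1 in SKO overlapped sgControl (-0.05, not passing). The mitochondrially encoded genes summed to 22400 to 23200 CPM in DKO TPA and 43400 to 51600 in the other TPA groups, and their part in the falls was not tested. The erythroid and megakaryocyte markers summed to 22.5 to 23.3 CPM in DKO TPA and to at most 5.01 in the other TPA groups, which also was not tested.

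In SKO under TPA 17 genes fell, 5 rose and 14 did not pass, with a median of -0.14, where 24.6% of genes fell and 25.8% rose. Only UBE2C fell 2-fold, as 4.29% of all genes did. CDK1 (-0.61), NDC80 (-0.43) and KIF11 (-0.37) were the next largest falls. BUB1, a checkpoint kinase, rose most: it stood at 175, 174 and 161 CPM in sgControl TPA, 202, 197 and 205 in SKO TPA and 80.9, 67.8 and 72.0 in DKO TPA. The SKO libraries lay above sgControl and DKO far below, at log2 fold changes of 0.24 ± 0.046 (adjusted p = 6.26e-05) and -1.21. CCNB2 (0.20), KIF23 (0.19), AURKA (0.12) and TPX2 (0.10) were the other rises, and without sgControl TPA replicate 3 the number of rises was 3, as AURKA (0.12) and TPX2 (0.09) lost their calls. The AURKA call was lost without any 1 of the 3 sgControl TPA libraries or without SKO TPA replicate 1 or 2 (0.10 to 0.13). CCNB2 and KIF23 lie on chromosome 15, whose median was 0.16 in SKO TPA against sgControl TPA. AURKA and TPX2 lie on chromosome 20, whose median was 0.12. The part of the chromosomes was not tested. DKO TPA set against SKO TPA was lower for 35 of 36 genes with a median of -1.45, where 32.4% of genes fell and 31.3% rose. The largest falls were in ANLN (-1.95) and SPC25 (-1.84), while NUSAP1 did not pass (0.22). Chromosome 7 had a median of -0.51 in that comparison. ANLN stood at -1.44 relative to it, and SPC25 at -1.765 relative to its own chromosome.

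TPA itself went with lower levels of most of these genes in each genotype. TPA and untreated libraries lie in different count tables, so treatment and table cannot be told apart. The myeloid markers summed to 1590 to 1630 CPM in sgControl TPA, 1550 to 1560 in SKO TPA and 1760 to 1810 in DKO TPA, all above untreated U937. Within that sum LYZ was at a mean of 662 CPM in sgControl TPA, 193 in SKO TPA and 146 in DKO TPA, while PTPRC was at 332, 519 and 557. The mitochondrially encoded genes were lower under TPA in DKO, at 22400 to 23200 CPM against 46500 to 49900 untreated. They were also lower in SKO, at 43400 to 46300 against 50600 to 52600. In sgControl they summed to 50600 to 51600 under TPA and 51900 to 56600 untreated. The part of the myeloid or mitochondrially encoded genes was not tested. In sgControl 27 genes fell and 4 rose, where 33.2% of 16989 genes tested fell and 34.6% rose, with a median of -0.41. CDC20 (-1.25), CCNB1 (-1.12), KIF20A (-1.11) and UBE2C (-0.85) fell most, and ASPM (0.34), MKI67 (0.30), ANLN (0.27) and CENPF, a large kinetochore protein (0.22), rose. The genes that did not pass were KIF11 (-0.10), NUF2 (-0.06), CENPE (0.09), NUSAP1 (0.09) and PRC1 (0.15). In SKO 33 genes fell and none rose, where 31.4% of genes fell and 31.5% rose, and the median was -0.68. UBE2C (-1.30), KIF20A (-1.17) and CDC20 (-1.10) fell most there, and CENPE (0.01), PRC1 (-0.15) and NUSAP1 (-0.65) did not pass. In DKO 33 fell, where 36.2% of genes fell and 36.9% rose, and the median was -1.42, led by KIF20A (-2.06) and CDC20 (-1.98). PRC1 (-0.74) and NUSAP1 (0.48) did not pass in DKO. UBE2C was the 1 gene that rose with TPA in DKO (0.77 ± 0.29, adjusted p = 0.0166), from a level near 1 CPM. That call was lost without DKO replicate 1 (0.51), DKO replicate 2 (0.68) or DKO TPA replicate 1 (0.32), and the value was 1.21 without DKO replicate 3.

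**Figure D4:**
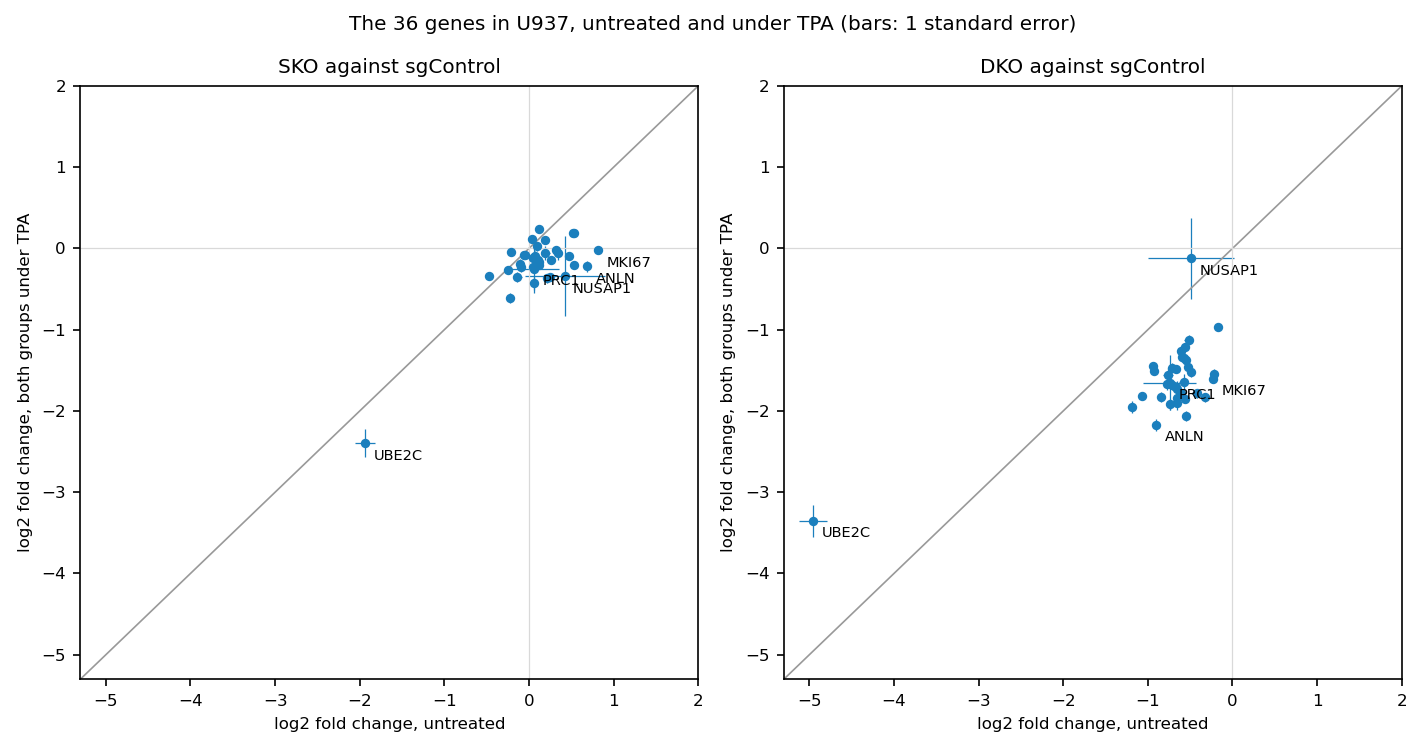
Log2 fold change of each of the 36 genes in U937 SKO and DKO against sgControl, untreated on the horizontal axis and under TPA on the vertical axis, with bars of 1 SE. In DKO 33 genes lie below the line of equal effect beyond the test, and in SKO ANLN and MKI67, which rose untreated, lie farthest below it.

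Whether a knockout effect differed between conditions was tested directly. Each knockout effect was taken within 1 count table before the effects were compared. The clone number and lane-like codes of untreated U937 DKO do not stand in the names of the TPA libraries. Clone, codes and TPA therefore cannot be told apart in the difference of the DKO effects. The DKO effect was lower under TPA than without it for 33 of 36 genes and higher for UBE2C alone, where 27.8% of genes were lower and 21.7% higher, with a median difference of -0.91. KIF11 (-1.50 ± 0.073) and ASPM (-1.49 ± 0.071) differed most among those lower, and UBE2C differed by 1.63 ± 0.32 (adjusted p = 4.76e-05). The UBE2C value rests on few reads in both DKO groups, 16, 26 and 42 untreated and 69, 20 and 43 under TPA. From so low a level a further fall could hardly be measured. The SKO effect was lower under TPA for 17 genes and higher for CCNB1 (0.18), where 18.1% of genes were lower and 19.6% higher, with a median difference of -0.27. The 1 higher gene became 2 without any sgControl or sgControl TPA library or without SKO replicate 1 or 3, and 3 without DKO TPA replicate 1 or 2. ANLN (-0.89), MKI67 (-0.83) and ASPM (-0.71), which all rose in untreated SKO, differed most. MKI67 did not pass under TPA in SKO, at 840, 906 and 884 CPM in sgControl TPA and 856, 865 and 874 in SKO TPA. Its groups overlapped there, unlike without TPA.

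Between lines, the SKO effect was higher in U937 than in THP-1 for 20 of the 33 genes away from chromosome 10 and lower for 2, where 24.1% of genes were higher and 22.7% lower. All 36 counted, 23 were higher. This count was 15 without U937 sgControl replicate 3 or U937 SKO replicate 3. MKI67 differed by 2.10 ± 0.071 and KIF11 by 1.43 ± 0.063, or by 1.16 and 0.48 relative to the median difference of chromosome 10, and UBE2C by -1.71. The DKO effect was lower in U937 than in THP-1 for 16 of the 33 genes and higher for 3, where 24.7% of genes were lower and 29.7% higher. The 2 DKO groups differ in the named SUV39H2 guide as well, so guide, clone and line cannot be told apart in this difference. UBE2C (-4.68), CENPE (-1.34 ± 0.084) and PRC1 (-1.26 ± 0.47, on few reads) differed most. The PRC1 call was lost without U937 sgControl replicate 1 (-1.13), THP-1 sgControl replicate 1 (-1.13) or 3 (-1.13), or THP-1 DKO replicate 3 (-1.06). With the 3 genes of chromosome 10 there were 6 that were higher, and 10 without THP-1 SKO replicate 3. Relative to that chromosome's median MKI67 differed by -0.05, KIF11 by -0.07 and CDK1 by -0.42.

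Other genes of the cell cycle, from 8 lists chosen with earlier results of these data known, were counted beside the mitotic genes. In U937 DKO TPA, MOLM-13 SKO and OCI-AML-3 DKO, where 36.5%, 32.2% and 25.6% of all genes fell, all 39 DNA replication genes fell, with medians of -1.59, -1.43 and -0.999. All 23 other spindle and cytokinesis genes fell in these 3 comparisons, and of 32 other kinetochore and checkpoint genes 32, 32 and 29 fell. The condensin and cohesin genes, which fold and hold chromosomes, fell in 17, 18 and 19 of 19. The 15 genes of the anaphase-promoting complex had smaller medians, with 8, 11 and 5 lower at -0.25, -0.28 and -0.14. The 5 of 15 in OCI-AML-3 are near the share of all genes that fell there.

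In untreated U937 SKO, where 30.7% of all genes rose and 31.2% fell, 9 of 39 replication genes rose and 11 fell, shares no larger than those of all genes. Of the 23 other spindle genes 14 rose and 1 fell. In U937 DKO, where 34.5% of all genes fell, 35 replication genes fell and 1 rose, and 18 other spindle genes fell and 2 rose. In THP-1 SKO, where 20.6% of all genes rose and 22.8% fell, 21 replication genes rose and 3 fell, whereas 15 other spindle genes fell and none rose. Genes of chromosome 10, which was lower in both THP-1 knockouts, were not set apart in these companion lists. In THP-1 DKO, where 33.7% of all genes fell, 36 replication genes fell and none rose, and 19 other spindle genes fell and 1 rose. Replication and spindle genes thus differed in direction in THP-1 SKO and fell together in DKO.

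**Figure D5:**
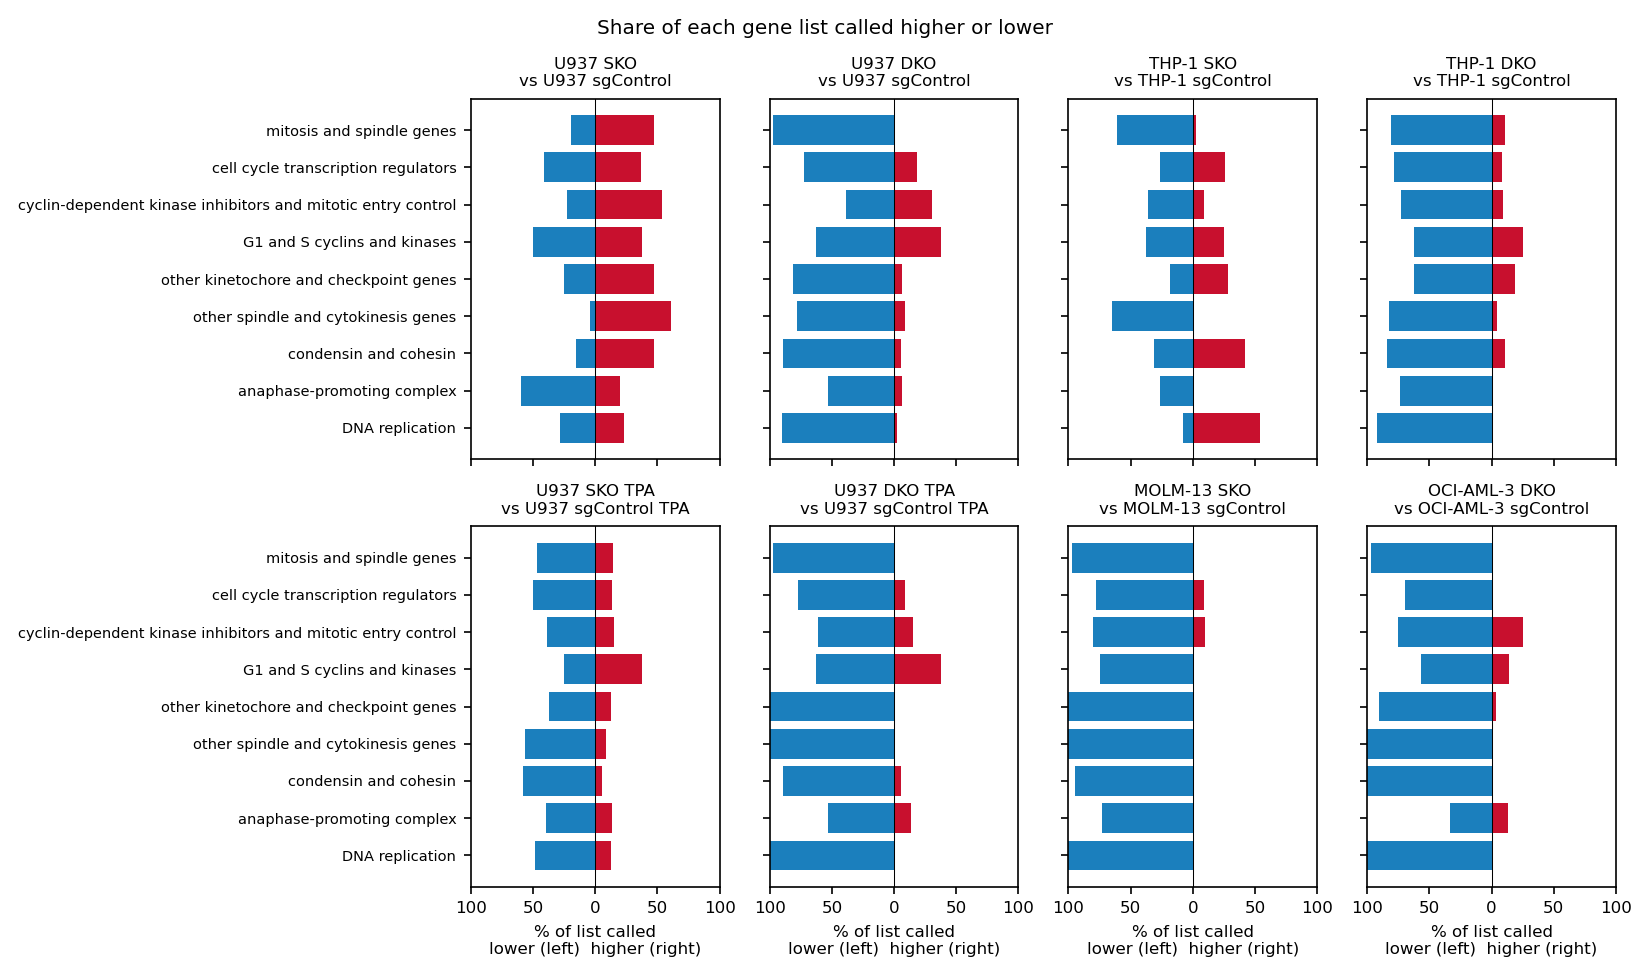
Share of each list called lower (left, blue) or higher (right, red), in percent, for the 36 mitotic genes and 8 companion lists in 8 comparisons with sgControl. In U937 DKO TPA, MOLM-13 SKO and OCI-AML-3 DKO the bars of the replication and other spindle lists reach 100% on the lower side. Those of the anaphase-promoting complex are shorter, and only in OCI-AML-3 DKO near the share of all genes.

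Of the transcription regulators of the cell cycle 17 of 22 tested fell in U937 DKO TPA, 18 of 23 in MOLM-13 SKO and 16 of 23 in OCI-AML-3 DKO. Of all genes tested, 36.5%, 32.2% and 25.6% fell in these comparisons. Among the regulators, FOXM1 and MYBL2, which act on G2 and mitotic promoters, fell in every DKO comparison with sgControl and in MOLM-13 SKO. FOXM1 changed by -0.58 in U937 DKO, -0.88 in THP-1 DKO, -1.95 in U937 DKO TPA and -1.27 in OCI-AML-3 DKO. In MOLM-13 it went from 82.6 and 81.1 CPM in sgControl to 22.3 and 23.2 in SKO, which do not overlap. MYBL2 changed by -0.87 in U937 DKO, -1.52 in THP-1 DKO, -1.74 in U937 DKO TPA, -1.55 in MOLM-13 SKO and -1.08 in OCI-AML-3 DKO. CDKN1A, which encodes the cyclin-dependent kinase inhibitor p21, rose in U937 (1.60 in SKO and 1.71 in DKO), under TPA (1.97 and 3.63), in MOLM-13 SKO (2.03) and in OCI-AML-3 DKO (3.12), and fell in THP-1 (-2.61 in SKO and -1.59 in DKO). It stood at 98.0, 98.7 and 95.5 CPM in U937 sgControl TPA, 381, 375 and 391 in SKO TPA and 1125, 1225 and 1262 in DKO TPA. In untreated U937 it stayed low, at 5.00, 3.63 and 4.30 CPM in sgControl, 12.8, 12.2 and 14.2 in SKO and 14.7, 13.3 and 14.1 in DKO. In THP-1 it stood at 136, 123 and 119 CPM in sgControl, 19.7, 21.7 and 20.2 in SKO and 39.4, 42.6 and 43.0 in DKO. CDKN1A thus rose in U937 DKO TPA, MOLM-13 SKO and OCI-AML-3 DKO, where the mitotic genes fell most, and fell in THP-1 DKO, where 26 of 33 mitotic genes fell as well. It also rose in untreated U937 SKO (1.60), where more mitotic genes rose than fell. The part of CDKN1A, FOXM1 or MYBL2 in the changes of the mitotic genes was not tested.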

How the data were processed

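RNA was poly(A)-selected and made into directional libraries, according to the protocols in the labels. The submitters' processing notes name fastp 0.23.4, STAR 2.7.11b, Subread 2.0.6 and the genome hg38. The authors deposited whole-number read counts per gene without normalization. For untreated U937 and THP-1 the file header records featureCounts 2.0.6 on GENCODE 38, by gene name, without strand, and leaving out reads that overlap several genes. No command is recorded in the other table, whose gene rows and coordinates are the same. Libraries held between 31985767 and 61178704 counted reads. Reads of a gene and its antisense partner cannot be told apart, and 10 of the 36 genes overlap exons on the opposite strand.

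The test was edgeR's quasi-likelihood test (edgeR 4.0.16, R 4.3.3) after its expression filter and TMM scaling, with Benjamini-Hochberg adjustment over all genes tested and a threshold of 0.05. Separate fits without covariates were made for untreated U937, THP-1, U937 under TPA, MOLM-13 and OCI-AML-3, and fits of 18 libraries gave TPA effects and differences of effects. The procedure was tested on simulated data. Chromosome medians, like the neighbours of UBE2C, used genes whose mean log2 CPM was 2 or more. Tables were handled with pandas 2.3.3 and drawn with matplotlib 3.10.9.

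The 36 genes and the companion lists were chosen with earlier results of these data known. In each comparison between groups up to 4 of the largest rises and falls past the test are named, with every gene that did not pass where these are 5 or fewer. Values per library are given for the largest rise and fall, for CCNB1, CDC20 and PLK1, and for the 3 chromosome 10 genes in THP-1. Genes with small changes, and UBE2C's neighbours, were named after their values were seen. Alternatives were DESeq2 1.42.0 size factors, the DESeq2 test, no filter, a block for replicate number, a fit of only the groups compared, the list without its chromosome 10 genes, and each library left out. A term for a code in the library names was added after the data were seen.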

Additional observations from a re-analysis of the deposited data

Results flagged for a closer look

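Differences of a knockout effect between conditions or lines that passed edgeR's quasi-likelihood test of the difference itself are listed here, on the log2 scale. The SKO effect in U937 differed between TPA and no TPA for 18 of the 36 genes, most for ANLN (-0.89), MKI67 (-0.83) and ASPM (-0.71). Of all genes tested, 19.6% were higher and 18.1% lower. The DKO effect in U937 differed between TPA and no TPA for 34 genes, most for UBE2C (1.63), KIF11 (-1.50) and ASPM (-1.49). Of these, UBE2C rests on few reads in both DKO groups. There 21.7% of all genes tested were higher and 27.8% lower.

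The SKO effect differed between U937 and THP-1 for 25 genes, most for MKI67 (2.10), UBE2C (-1.71) and KIF11 (1.43). Of all genes tested, 24.1% were higher and 22.7% lower. MKI67 and KIF11 lie on chromosome 10, whose genes were lower in the THP-1 knockouts. The DKO effect differed between the 2 lines for 22 genes, most for UBE2C (-4.68), CENPE (-1.34) and PRC1 (-1.26), of which PRC1 rests on few reads. There 29.7% of all genes tested were higher and 24.7% lower, so this count is near the share of all genes.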

How the results depend on the processing

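Over 8998 alternatives of 538 changes that passed the test, no direction reversed. Of these, 118 came from the list without its chromosome 10 genes, which was not refitted, so they could not change. Calls were lost for 5 genes' changes with DESeq2 size factors, 6 with the DESeq2 test, 13 without the filter, 4 with only the 2 groups compared, and in 181 of 6265 refits that left out 1 library. Same-numbered libraries correlated between -0.05 and 0.243 in U937, with 1 of 9 pairs over 0.1, where other pairs ran from -0.24 to 0.195. In THP-1 they correlated between -0.034 and 0.185, with 3 of 9 over 0.1, where other pairs ran from -0.211 to 0.116. These values do not settle whether replicate numbers weakly pair the THP-1 samples. With the replicate block 1 call was lost (NUSAP1 in OCI-AML-3 DKO). A term for the library-name code in untreated U937 kept the call in all 94 cases.

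Some counts of genes higher moved by over 1.5 times. In THP-1 SKO the count of 1 was 2 without the filter and 2 with the replicate block. For the SKO effect under TPA against untreated the count of 1 was 3 with size factors, with the DESeq2 test and without the filter. For TPA in U937 DKO it was 0 with only the 2 groups compared. For the DKO effect in U937 against THP-1 the count of 6 was 3 without MKI67, KIF11 and CDK1. Each such cause was not tested, except that the last alternative holds fewer genes.

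Leaving out 1 library, counts higher ran from 1 to 3 in THP-1 SKO, 2 to 4 in THP-1 DKO, 3 to 5 in U937 SKO TPA, 0 to 1 for TPA in U937 DKO, 1 to 3 for the SKO effect under TPA against untreated, 15 to 24 for the SKO effect and 4 to 10 for the DKO effect in U937 against THP-1. With 2 libraries a group, the lone sample is then assumed to vary like the others. No more than 82 reads a library limit NUSAP1 and PRC1.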
